A study of Mus musculus with 2 samples.

Results

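Slit2, Slit3, Robo1, Robo2, Ntn1, Unc5b, Unc5c, Sema3a, Sema3c and Sema3d are genes of the Slit, netrin and semaphorin systems, 10 of the 32285 genes counted in single-cell RNA libraries of the mouse embryonic heart. They were chosen by symbol, and each of the 10 was found once in the gene list. Hearts were dissected at E10.5, and 4 hearts were pooled for each of 2 libraries, made with the 10x Chromium 3′ kit, in which each captured molecule carries a unique molecular identifier (UMI). The knockout library came from BubR1fl/fl; Nkx2.5-cre (het) embryos and the wildtype library from BubR1+/+; Nkx2.5-cre (het) embryos, so both groups carried 1 copy of the Cre, which the Nkx2.5 locus drives in cardiac progenitors and the cells that descend from them. Bub1b encodes BubR1, a kinase-like protein of the mitotic checkpoint, and the design compares hearts with and without it in these cells. With 1 library per genotype there is no replicate check, no test was possible and no p-value is given, so every difference described here is a difference between these libraries. Levels are UMIs of a gene summed over the cells of a class and scaled to a common total (CPM), 95% intervals cover counting error only, and ratios are log2 ratios of the knockout over the wildtype library.

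Barcodes with at least 3000 UMIs, at least 500 genes and at most 20% mitochondrial UMIs were kept, 5966 in the knockout library with a median of 17043 UMIs and 7440 in the wildtype library with a median of 9505 UMIs. Marker genes set the classes. The knockout library held 555 cardiomyocytes, 833 endothelial/endocardial, 558 mesenchymal, 2210 epicardial and 1108 erythroid cells, and the wildtype library held 560 cardiomyocytes, 1394 endothelial/endocardial, 1737 mesenchymal, 1078 epicardial and 1694 erythroid cells. All 12 cardiomyocyte markers and all 11 endothelial/endocardial markers stood at least 2-fold above the other classes in both libraries, as did 9 of the 10 epicardial markers in the knockout and 10 in the wildtype library, and 7 of the 12 mesenchymal markers in the knockout and 12 in the wildtype library. The libraries also differed in ways that accompany every comparison below. Embryonic globins made up 85.9% of hemoglobin UMIs in erythroid cells of the knockout library and 60.8% in those of the wildtype library, and Hmga2, a chromatin gene that is high in early embryos, stood at 716 CPM in epicardial cells of the knockout library and 192 CPM in those of the wildtype library, although both libraries are labelled with the same day. Subtype makeup differed too, with 19.1% of cardiomyocytes scored as outflow tract in the knockout and 4.82% in the wildtype library, and 75.3% of mesenchymal cells scored as cushion mesenchyme in the knockout and 28.0% in the wildtype library. Genotype, developmental stage, cell makeup and library cannot be told apart in this design. Bub1b had a log2 ratio of -0.95 (interval -1.16 to -0.74) in cardiomyocytes, 0.35 (0.13 to 0.57) in endothelial/endocardial, 0.09 (-0.09 to 0.27) in mesenchymal and 0.66 (0.48 to 0.84) in epicardial cells, but no source used here names the deleted exons, and reads at the 3′ end outside them check nothing. Both libraries held 8 barcode sequences in common.

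Slits are secreted ligands that bind Robo receptors, and netrins are laminin-like ligands whose receptors include the Unc5 family, Dcc and neogenin. Class 3 semaphorins are secreted and act mostly through complexes of neuropilins and plexins. First known for steering axons, the same systems are known in the heart for shaping the outflow tract, the endocardial cushions, the pericardium and the growing vessels.

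On mm10 the GENCODE annotation places Slit2 (ENSMUSG00000031558) at chr5:47983138-48307733 on the plus strand and Slit3 (ENSMUSG00000056427) at chr11:35121224-35708507 on the plus strand. The Slit receptors share a chromosome, with Robo1 (ENSMUSG00000022883) at chr16:72308306-73046095 on the plus strand and Robo2 (ENSMUSG00000052516) at chr16:73891839-74411825 on the minus strand. The netrin gene is Ntn1 (ENSMUSG00000020902) at chr11:68209364-68400823 on the minus strand, and its receptors are Unc5b (ENSMUSG00000020099) at chr10:60762593-60831581 on the minus strand and Unc5c (ENSMUSG00000059921) at chr3:141465216-141834924 on the plus strand. The 3 semaphorins share a chromosome, with Sema3d (ENSMUSG00000040254) at chr5:12383385-12588948 on the plus strand, Sema3a (ENSMUSG00000028883) at chr5:13125414-13602565 on the plus strand and Sema3c (ENSMUSG00000028780) at chr5:17574281-17730268 on the plus strand.

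Slit3 ran highest in the epicardium, and within muscle it was a gene of the non-ventricular cells. Epicardial cells had 676 CPM of Slit3 in the knockout library (interval 668 to 684) and 1161 CPM in the wildtype library (1140 to 1182). Mesenchymal cells had 155 CPM (knockout) and 504 CPM (wildtype), cardiomyocytes 153 CPM (knockout) and 166 CPM (wildtype), and endothelial/endocardial cells 22.0 CPM (knockout) and 64.5 CPM (wildtype). The order of the classes was thus the same in both libraries, but the intervals of mesenchymal cells and cardiomyocytes overlapped in the knockout library. Erythroid cells had 7.77 CPM (knockout) and 4.40 CPM (wildtype). Hemoglobin made up a median of 48.3% (knockout) and 84.6% (wildtype) of their UMIs, which lowers the CPM of every other gene there. They are therefore not a like measure of stray RNA in the other classes.

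Within cardiomyocytes, Slit3 set the ventricular cells apart from the rest, and it did so less sharply in the knockout library. Ventricular-scored cells had 71.1 CPM in the knockout library (358 UMIs) and 10.7 CPM in the wildtype library (62 UMIs), a log2 ratio of 2.73 (2.34 to 3.14). Atrial-scored cells had 345 CPM in the knockout and 596 CPM in the wildtype library, a log2 ratio of -0.79 (-0.97 to -0.62). Sinoatrial-scored cells had 323 CPM (knockout) and 545 CPM (wildtype), outflow tract-scored cells 224 CPM (knockout) and 327 CPM (wildtype), and atrioventricular canal-scored cells 104 CPM (knockout) and 132 CPM (wildtype). Slit3 was therefore lower in each of these non-ventricular groups of the knockout library and higher in the ventricular one, although the interval of the atrioventricular canal ratio, -0.83 to 0.19, held 0. The log2 ratio of atrial over ventricular cells was 2.28 (2.06 to 2.49) in the knockout library and 5.80 (5.43 to 6.19) in the wildtype library. Over all cardiomyocytes these opposed differences left a log2 ratio of -0.12 (-0.23 to -0.02). The subtypes are ranges of a marker score with blurred edges: 4 to 10 cells per group in the knockout and 2 to 7 in the wildtype library had their best score within 0.1 of the next one. Free RNA could bring up to 59.0 Slit3 UMIs to all cardiomyocytes of the knockout library and up to 124 to those of the wildtype library. Wildtype ventricular cells, 62.5% of the wildtype cardiomyocytes, had 62 UMIs, so their level was not detectable above free RNA.

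**Figure D1:**
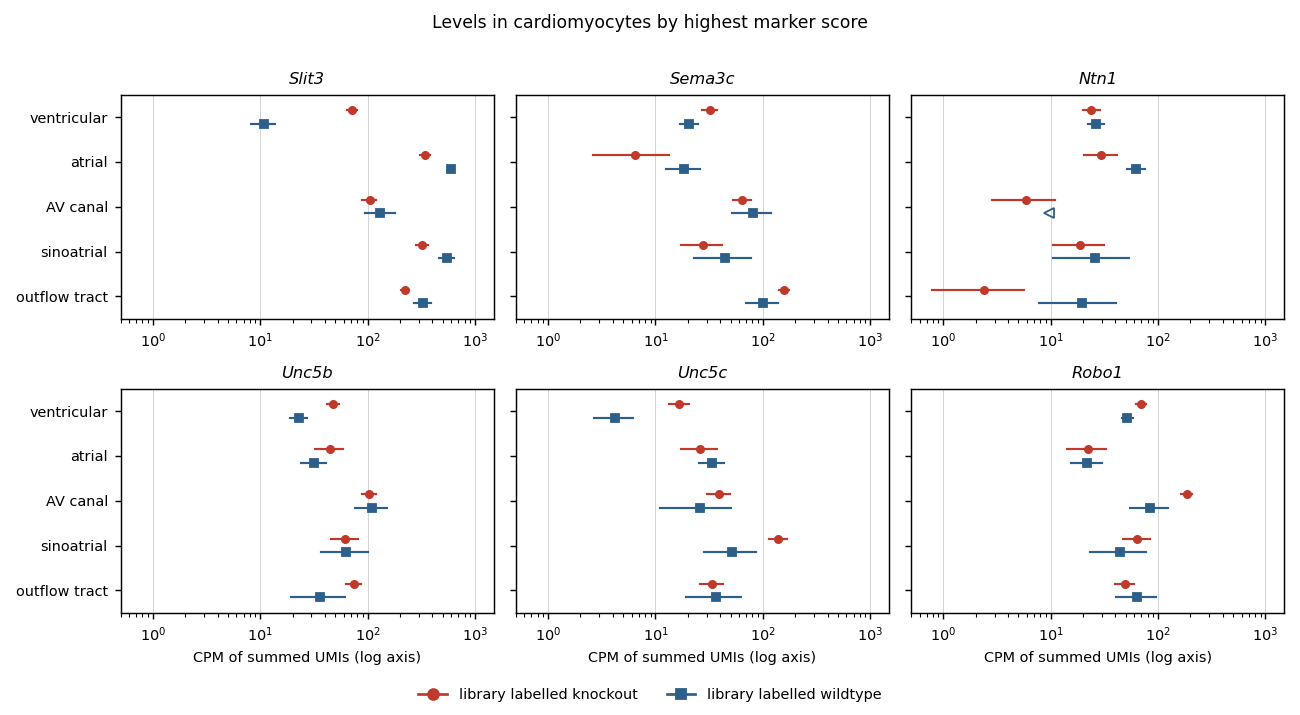
CPM of summed UMIs (log axis) of 6 guidance genes in cardiomyocytes grouped by their highest marker score, for the knockout library (circles) and the wildtype library (squares); lines are 95% Poisson intervals for counting error and open triangles mark a count of 0, drawn at the floor of 3 counts. Ventricular Slit3 is at 71.1 CPM in the knockout and 10.7 CPM in the wildtype library, while atrial Slit3 is at 345 CPM (knockout) and 596 CPM (wildtype).

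Slit2, the other Slit ligand, was a gene of the endocardium, mesenchyme and epicardium, and it was the member whose log2 ratio lay farthest from 0 in mesenchymal cells. Mesenchymal cells had 145 CPM of Slit2 in the knockout library (1073 UMIs, interval 137 to 154) and 1179 CPM in the wildtype library (19105 UMIs, 1162 to 1196), a log2 ratio of -3.02 (-3.11 to -2.93). Epicardial cells had 281 CPM (knockout) and 766 CPM (wildtype), a log2 ratio of -1.45 (-1.49 to -1.41). Endothelial/endocardial cells had 345 CPM in the knockout library and 336 CPM in the wildtype library, a log2 ratio of 0.04 whose interval, -0.03 to 0.10, held 0. Within that class the ratio was 0.23 (0.14 to 0.33) in chamber-scored, -0.48 (-0.59 to -0.36) in cushion-scored and -0.58 (-0.79 to -0.38) in vascular cells. Slit2 was thus highest in endothelial/endocardial cells of the knockout library and highest in mesenchymal cells of the wildtype library. After every cell was thinned to 3000 UMIs, a Slit2 UMI was found in 20.1% of mesenchymal cells of the knockout and 65.3% of those of the wildtype library, against 1.17% (knockout) and 1.65% (wildtype) of erythroid cells. Before thinning these shares were 39.4% (knockout) and 75.2% (wildtype) in mesenchymal cells and 4.69% (knockout) and 5.19% (wildtype) in erythroid cells. Median depths were 12458 (knockout) and 8487 (wildtype) UMIs in mesenchymal cells and 20299 (knockout) and 11290 (wildtype) UMIs in erythroid cells. Of the erythroid UMIs a median of 48.3% (knockout) and 84.6% (wildtype) were hemoglobin, so the erythroid shares are not a like background.

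The deficit of Slit2 in the knockout library ran through all 3 mesenchymal subtypes. Cushion-scored cells, the mesenchyme of the forming valves, had 149 CPM in the knockout and 478 CPM in the wildtype library, a log2 ratio of -1.68 (-1.80 to -1.56). Cells scored as outer mesenchyme had 225 CPM in the knockout library (66 UMIs in 23 cells) and 1664 CPM in the wildtype library. Arterial wall-scored cells had 114 CPM (knockout) and 967 CPM (wildtype). With the subtype shares of the wildtype library given to both, the log2 ratio of the class was -2.72. Within the endocardium Slit2 stood at 330 CPM in cushion-scored and 387 CPM in chamber-scored cells of the knockout library, and at 460 and 329 CPM in those of the wildtype library, so the order of both groups differed between the libraries. Cardiomyocytes had 26.4 CPM (knockout) and 29.0 CPM (wildtype) of Slit2, and free RNA could account for up to 45.4 of their 282 UMIs in the knockout library and up to 178 of 245 in the wildtype library.

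Robo1 and Robo2 encode the transmembrane receptors for Slits, and both were highest in mesenchyme among the 4 main classes. Robo1 stood at 406 CPM in mesenchymal cells of the knockout library and 850 CPM in those of the wildtype library, a log2 ratio of -1.07 (-1.12 to -1.01). Epicardial cells had 220 CPM (knockout) and 571 CPM (wildtype) of Robo1 (-1.38, interval -1.43 to -1.33), endothelial/endocardial cells 112 CPM (knockout) and 146 CPM (wildtype), and cardiomyocytes 78.1 CPM (knockout) and 46.9 CPM (wildtype). This order of the 4 classes was the same in both libraries and no neighbouring intervals overlapped. Among cardiomyocytes, the atrioventricular canal-scored cells had most Robo1, 184 CPM in the knockout library (164 to 205) and 83.6 CPM in the wildtype library (54.6 to 122), and the atrial-scored cells least, 22.2 CPM (knockout) and 21.8 CPM (wildtype). In the wildtype library the interval of the atrioventricular canal overlapped those of the ventricular, sinoatrial and outflow tract cells.

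Robo2 followed the cushion score in endocardium. Within the endothelial/endocardial class it was at 84.0 CPM in cushion-scored and 3.18 CPM in chamber-scored cells of the knockout library, a log2 ratio of 4.72 (4.06 to 5.47), and at 131 and 9.61 CPM in those of the wildtype library, 3.76 (3.29 to 4.27). The chamber-scored counts were low, 19 UMIs in the knockout and 41 in the wildtype library, and the ratios depend on them. The cushion score uses Sox9 and Snai2, which were among the genes most like Robo2. Barcodes that also passed the mesenchymal limit stayed in the endothelial/endocardial class. Their part in the cushion-scored levels of Robo2 and the other members was not tested. Free RNA could bring up to 33.6 (knockout) and 66.1 (wildtype) UMIs to the whole class, of which chamber-scored cells were 51.6% and 37.7%. It was not bounded for those cells alone, so whether their levels stood above free RNA was not settled. Cushion mesenchyme had 932 CPM in the knockout and 1106 CPM in the wildtype library. Outer mesenchyme had 1402 CPM in the 23 such cells of the knockout and 335 CPM in the wildtype library, and the arterial wall 959 CPM (knockout) and 333 CPM (wildtype). In the wildtype library Robo2 was thus highest in cushion-scored mesenchyme, with a log2 ratio of arterial wall over cushion of -1.73 (-1.82 to -1.65). In the knockout library that ratio was 0.04 (-0.05 to 0.13). Every cell received its best-scoring subtype, however weak the score. Of the arterial wall-scored cells, 23 of 115 (knockout) and 69 of 461 (wildtype) had their best score within 0.1 of the next one. The part of such cells in these ratios was not tested. Over the whole mesenchymal class Robo2 stood at 956 CPM (knockout) and 529 CPM (wildtype), a log2 ratio of 0.85 (0.81 to 0.90), while in cushion-scored cells alone it was -0.25 (-0.30 to -0.19). Robo1 and Robo2 therefore stood on opposite sides in mesenchyme taken whole and both below 0 in its cushion-scored cells, where Robo1 was at -1.04 (-1.12 to -0.96).

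**Figure D2:**
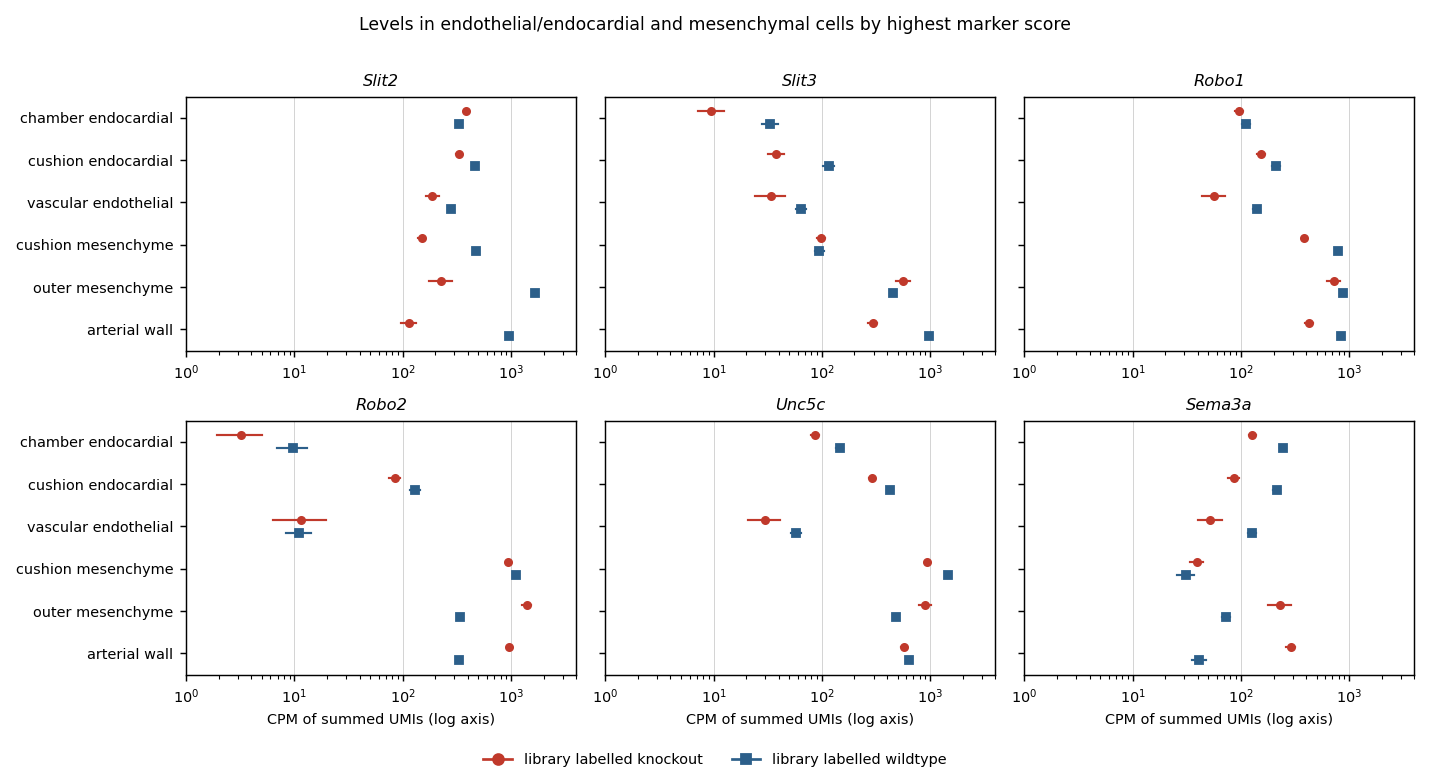
CPM of summed UMIs (log axis) of 6 guidance genes in endothelial/endocardial and mesenchymal cells grouped by their highest marker score, for the knockout library (circles) and the wildtype library (squares), with 95% Poisson intervals for counting error. Slit2 is lower in all 3 mesenchymal groups of the knockout library, and Robo2 in the arterial wall is at 959 CPM in the knockout and 333 CPM in the wildtype library.

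Ntn1, which encodes netrin-1, was a cardiomyocyte gene. Cardiomyocytes had 17.0 CPM in the knockout library (182 UMIs, 14.7 to 19.7) and 32.5 CPM in the wildtype library (275 UMIs, 28.8 to 36.6). Endothelial/endocardial cells had 1.09 CPM (knockout) and 3.11 CPM (wildtype), mesenchymal cells 0.949 CPM (knockout) and 3.46 CPM (wildtype), and epicardial cells 0.746 CPM (knockout) and 3.06 CPM (wildtype), and the intervals of these 3 classes overlapped within each library. Atrial-scored cardiomyocytes had 29.6 CPM (knockout) and 62.0 CPM (wildtype) (-1.07, interval -1.69 to -0.49) and ventricular-scored ones 23.8 CPM (knockout) and 26.5 CPM (wildtype) (-0.15, interval -0.51 to 0.20). Atrioventricular canal-scored cells had 5.93 CPM in the knockout library and 0 UMIs in the wildtype library, where 3 counts would be 9.65 CPM, so no ratio is given for them. A Ntn1 UMI was found in 4.32% of thinned cardiomyocytes of the knockout library (2.79% to 6.37%) and 7.68% of those of the wildtype library (5.61% to 10.2%), and in 17.5% (knockout) and 22.5% (wildtype) before thinning.

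Unc5c and Unc5b encode netrin receptors of the repulsive kind. Unc5c was highest in mesenchyme, at 857 CPM in the knockout and 772 CPM in the wildtype library, followed by epicardium at 446 CPM (knockout) and 225 CPM (wildtype), endothelium and endocardium at 151 CPM (knockout) and 167 CPM (wildtype) and cardiomyocytes at 33.5 CPM (knockout) and 13.8 CPM (wildtype), an order shared by both libraries. Like Robo2, it was higher in cushion-scored than in chamber-scored endocardium, with 291 and 86.2 CPM in the knockout library and 427 and 146 CPM in the wildtype library. Cushion mesenchyme had 927 CPM in the knockout and 1474 CPM in the wildtype library. Among cardiomyocytes the sinoatrial-scored cells, the group that holds pacemaker precursors, had most Unc5c, with 139 CPM in the knockout library (110 UMIs) and 51.9 CPM in the wildtype library (14 UMIs). Ventricular-scored cells had least, with 16.7 CPM (knockout) and 4.15 CPM (wildtype), although in the knockout library their interval overlapped that of atrial cells. The interval of sinoatrial cells overlapped no other in the knockout library, and in the wildtype library it overlapped those of the atrial, atrioventricular canal and outflow tract cells.

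Unc5b was spread more evenly, and within each class it was highest at the atrioventricular canal or in the cushions. Atrioventricular canal-scored cardiomyocytes had 104 CPM in the knockout library (175 UMIs, 89.0 to 120) and 109 CPM in the wildtype library (34 UMIs, 75.7 to 153). Cushion mesenchyme had 110.2 CPM (knockout) and 114 CPM (wildtype). These pairs differed by less than their counting intervals. Ventricular-scored cells had 48.1 CPM (knockout) and 22.8 CPM (wildtype) (1.07, interval 0.76 to 1.39), epicardial cells 101 CPM (knockout) and 55.5 CPM (wildtype) (0.87, interval 0.74 to 0.99), and chamber-scored endocardium 13.1 CPM (knockout) and 12.7 CPM (wildtype). A Unc5b UMI was found in 16.8% of thinned cardiomyocytes of the knockout library and 9.11% of those of the wildtype library (59.1% in the knockout and 31.4% in the wildtype library before thinning), against at most 1.65% of thinned erythroid cells for any of the 10 genes in either library.

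Sema3a, Sema3c and Sema3d encode secreted semaphorins and differed in where they were highest. Sema3a was highest in endothelial/endocardial cells, at 105 CPM in the knockout library (98.7 to 111) and 187 CPM in the wildtype library (179 to 195). Chamber-scored endocardium had 128 CPM (knockout) and 246 CPM (wildtype) of it, cushion-scored endocardium 85.5 CPM (knockout) and 213 CPM (wildtype) and vascular cells 52.0 CPM (knockout) and 126 CPM (wildtype), so the order was kept while each level was lower in the knockout library. Arterial wall-scored cells stood on the other side, at a log2 ratio of 2.82 (2.56 to 3.08). They had 290 CPM in the knockout library (263 to 319) and 41.0 CPM in the wildtype library (35.2 to 47.5). Mesenchymal cells as a whole had 95.05 CPM (knockout) and 54.0 CPM (wildtype) and epicardial cells 34.9 CPM (knockout) and 66.2 CPM (wildtype). In the knockout library the intervals of endothelial/endocardial and mesenchymal cells overlapped.

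Sema3c, a semaphorin known for its role in the septation of the outflow tract, was an outflow gene within the myocardium. Outflow tract-scored cardiomyocytes had 157 CPM in the knockout library (328 UMIs, 141 to 175) and 100.5 CPM in the wildtype library (36 UMIs, 70.4 to 139). Atrioventricular canal-scored cells had 64.0 CPM (knockout) and 80.4 CPM (wildtype), ventricular cells 32.0 CPM (knockout) and 20.6 CPM (wildtype), sinoatrial cells 27.8 CPM (knockout) and 44.5 CPM (wildtype) and atrial cells 6.47 CPM (knockout) and 18.4 CPM (wildtype). Outflow tract cells stood above all other cardiomyocyte groups in the knockout library without overlap of intervals, and in the wildtype library their interval overlapped those of the atrioventricular canal and sinoatrial cells. Epicardial cells had 46.1 CPM in the knockout and 103 CPM in the wildtype library, and they held 56.5% of all Sema3c UMIs in the knockout and 40.5% in the wildtype library, more than any other class. These shares also follow class size, as epicardial cells were 37.0% of kept barcodes in the knockout and 14.5% in the wildtype library.

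Sema3d was an epicardial gene, at 444 CPM in the knockout library (438 to 451) and 611 CPM in the wildtype library (596 to 626). Mesenchyme followed with 38.5 CPM (knockout) and 161 CPM (wildtype), and endothelial/endocardial cells had 9.88 CPM (knockout) and 15.1 CPM (wildtype) and cardiomyocytes 8.42 CPM (knockout) and 5.20 CPM (wildtype). Of all Sema3d UMIs in kept barcodes, 89.0% lay in epicardial cells of the knockout library and 60.6% in those of the wildtype library. As with Sema3c, these shares also follow the number of epicardial cells, which was larger in the knockout library. After thinning, a Sema3d UMI was found in 64.2% of epicardial cells of the knockout and 74.9% of those of the wildtype library, and before thinning in 93.2% (knockout) and 91.4% (wildtype). In cushion-scored endocardium it reached 23.7 CPM (knockout) and 40.2 CPM (wildtype), against 1.51 CPM (knockout) and 3.52 CPM (wildtype) in chamber-scored endocardium. The chamber-scored levels rest on 9 UMIs (knockout) and 15 UMIs (wildtype), and whether they stood above free RNA was not tested.

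**Figure D3:**
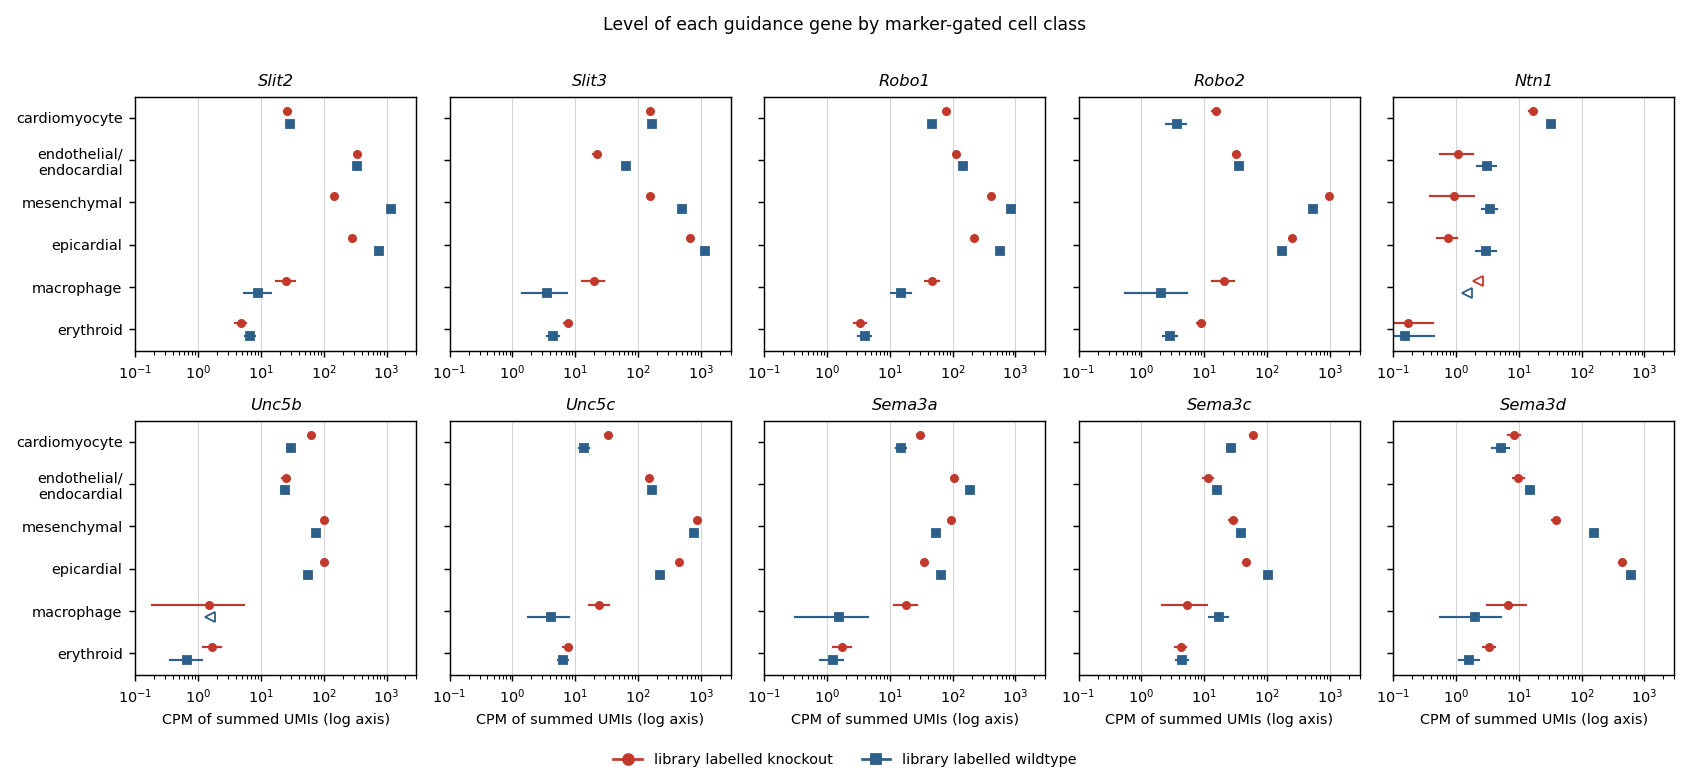
CPM of summed UMIs (log axis) of the 10 guidance genes in 6 marker-gated classes of the knockout library (circles) and the wildtype library (squares), with 95% Poisson intervals for counting error and open triangles for a count of 0, drawn at the floor of 3 counts. Robo1, Robo2 and Unc5c are ordered alike over the 4 main classes, with mesenchyme highest in both libraries. Erythroid cells are at 8.98 CPM or less for every gene, but hemoglobin fills much of their total and lowers these values.

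The sequences just before the start sites are shown for 1 member of each of 4 kinds, the ligand Slit2, the Slit receptor Robo2, the netrin receptor Unc5b and the semaphorin Sema3d, because these genes differ in class profile and their windows lie outside the annotated gene body, apart from 17 bases of the Slit2 window. Each window holds the 250 bases upstream of the RefSeq start, read along the gene's strand on GRCm38.p6; capitals mark the motifs searched for. The windows are chr5:47982905-47983154 on the plus strand, chr16:74411826-74412075 on the minus strand, chr10:60831582-60831831 on the minus strand and chr5:12382916-12383165 on the plus strand.
Slit2: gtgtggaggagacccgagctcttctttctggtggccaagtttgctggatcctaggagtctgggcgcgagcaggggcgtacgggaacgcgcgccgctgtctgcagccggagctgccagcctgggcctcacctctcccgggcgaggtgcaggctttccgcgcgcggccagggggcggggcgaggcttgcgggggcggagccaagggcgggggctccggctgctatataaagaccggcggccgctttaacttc
Robo2: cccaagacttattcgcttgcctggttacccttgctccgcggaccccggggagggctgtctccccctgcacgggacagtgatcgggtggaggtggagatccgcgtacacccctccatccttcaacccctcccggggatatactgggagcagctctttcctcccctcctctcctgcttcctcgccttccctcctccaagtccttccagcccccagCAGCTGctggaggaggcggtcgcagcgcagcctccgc
Unc5b: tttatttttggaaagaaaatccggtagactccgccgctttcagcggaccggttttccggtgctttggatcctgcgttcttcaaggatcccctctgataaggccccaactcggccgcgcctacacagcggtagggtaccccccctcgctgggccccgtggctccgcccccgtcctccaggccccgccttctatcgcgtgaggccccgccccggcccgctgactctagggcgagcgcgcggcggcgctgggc
Sema3d: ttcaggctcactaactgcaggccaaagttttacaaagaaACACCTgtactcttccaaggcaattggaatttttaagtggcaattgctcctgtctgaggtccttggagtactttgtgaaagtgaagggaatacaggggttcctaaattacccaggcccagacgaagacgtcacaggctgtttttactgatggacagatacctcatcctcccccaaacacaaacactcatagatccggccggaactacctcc
Of the 10 members 9 had an entry. The motifs searched on both strands were AGATAA for GATA factors, AGGTGT for T-box factors, CTTTGA for Tcf/Lef factors and the E-box CAGCTG, found in 9.99%, 11.8%, 13.8% and 13% of 32851 windows of the same length. The T-box letters occurred once in Sema3d and once in Unc5c, and the E-box once in Robo2. None of the motifs was in the windows of Slit2, Slit3, Robo1, Unc5b, Sema3a and Sema3c, which says only that these letters are not there. The windows of Robo1, Unc5c, Sema3a and Sema3c lie wholly inside the annotated gene, past its GENCODE start, as do 232 bases of the Slit3 window. The Robo1 window begins at chr16:72662899 and the Sema3a window at chr5:13396534, so neither covers the annotated start given above. G and C made up 69.6% of the Slit2 window, 65.6% of Robo2, 66.8% of Unc5b and 46.8% of Sema3d, with a median of 52.4% over all windows.

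In cardiomyocytes 4 of the 10 members, Robo2, Unc5c, Sema3c and Unc5b, were at least 2-fold higher in the knockout library and 0 were at least 2-fold lower, where 5.36% and 4.48% of the 13248 genes with at least 20 UMIs were past those limits. The median log2 ratio of the 10 was 0.87, against 0.03 for all these genes. Robo2 stood at 15.4 CPM (knockout) and 3.66 CPM (wildtype), a log2 ratio of 2.08 (1.52 to 2.68), Unc5c at 1.28 (0.97 to 1.59), Sema3c at 1.15 (0.92 to 1.37) and Unc5b at 1.08 (0.87 to 1.29). Sema3a, just inside the limit, had 30.2 CPM (knockout) and 15.1 CPM (wildtype) and a log2 ratio of 0.998, Robo1 0.73 (0.56 to 0.91) and Sema3d 0.70 (0.16 to 1.25). Ntn1 stood at -0.93 (-1.21 to -0.66) and Slit2 at -0.13 (-0.39 to 0.12). With the most that free RNA could bring subtracted from both libraries, 8 members were past the limit upwards, Slit2 among them at 1.44, and 2 were not, Slit3 and Ntn1. For Robo2 and Sema3d the wildtype count fell to 0 in this step, so their values were set by the floor of 3 counts. The step took 2.97% of cardiomyocyte UMIs from the knockout and 7.07% from the wildtype library. The share of all genes past 2-fold after it was not taken.

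These values were also taken at matched cell makeup and set beside the most that free RNA could bring. When the 5 subtypes were given the shares of the wildtype library, 1 member stayed past 2-fold, Robo2 at 1.85, while Unc5c stood at 0.79, Unc5b at 0.69 and Sema3c at 0.25. Within ventricular-scored cells alone, 4 members were at least 2-fold higher and 0 lower, against 4.34% and 5.22% of 11854 genes: Slit3, Unc5c at 2.01 (1.34 to 2.73), Robo2 at 1.26 (0.21 to 2.38) and Unc5b. Of these, the wildtype counts of Unc5c (24 UMIs) and Robo2 (12 UMIs), like that of Slit3, were not detectable above free RNA. It could bring up to 87.2 and 60.9 UMIs to all wildtype cardiomyocytes, of which ventricular cells were 62.5%. For the knockout Robo2 count of 25, the bound of 44.1 covers all knockout cardiomyocytes, of which ventricular cells were 40.5%. That bound does not settle whether the knockout level stood above free RNA. Within atrial-scored cells Sema3c had a log2 ratio of -1.51 (-2.93 to -0.30), from 7 UMIs (knockout) and 32 UMIs (wildtype). Unc5c there was at -0.36 (-1.07 to 0.31). Of the UMIs of Robo2 in cardiomyocytes, free RNA could bring up to 44.1 of 165 in the knockout and up to 60.9, above the 31 counted, in the wildtype library, so the wildtype level was not detectable above free RNA. The same held for Sema3d, with 44 UMIs and up to 52.9 from free RNA in the wildtype library. Markers of mesenchyme summed to 135 CPM in cardiomyocytes of the knockout and 104 CPM in those of the wildtype library with 0 of 12 absent in either, markers of endothelium to 49.1 CPM (knockout) and 35.6 CPM (wildtype) with 0 of 11 absent, and markers of epicardium to 88.5 CPM (knockout) and 94.8 CPM (wildtype) with 0 of 10 absent in the knockout and 2 in the wildtype library. Their part in the ratios was not tested.

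**Figure D4:**
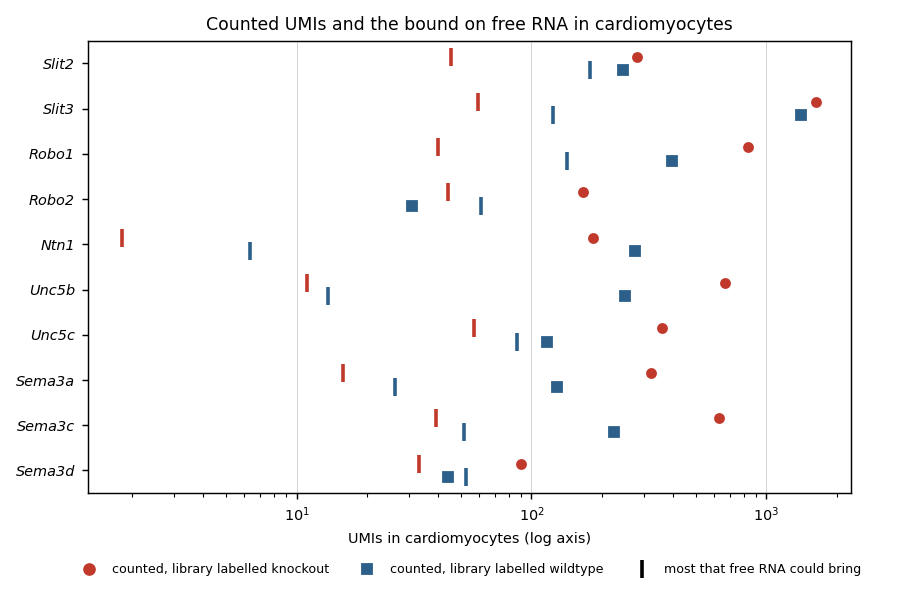
UMIs of the 10 guidance genes counted in cardiomyocytes (log axis) of the knockout library (circles) and the wildtype library (squares), with vertical ticks in the same colours for the most that free RNA could bring. For Robo2 and Sema3d the wildtype count lies below its tick, at 31 against 60.9 and 44 against 52.9 UMIs.

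In endothelial/endocardial cells 0 members were at least 2-fold higher in the knockout library and 2 were at least 2-fold lower, Slit3 and Ntn1, where 2.15% and 8.78% of 14078 genes were past those limits. Slit3 had a log2 ratio of -1.55 (-1.76 to -1.34), with -1.80 in chamber-scored, -1.62 in cushion-scored and -0.92 in vascular cells. Ntn1 rests on 12 UMIs in the knockout library, of which free RNA could bring up to 1.38, and 38 in the wildtype library, of which it could bring up to 6.86, and had a log2 ratio of -1.52 (-2.59 to -0.55). Sema3a was at -0.84 (-0.94 to -0.73), with -1.32 (-1.52 to -1.12) in cushion-scored cells. Over the whole class Robo2, Unc5c and Unc5b lay at -0.16, -0.14 and 0.06, and the median gene at -0.12. In cushion-scored cells, 32.9% of the class in the knockout and 19.4% in the wildtype library, Robo2 lay at -0.64 (-0.86 to -0.41), Unc5c at -0.55 (-0.67 to -0.43) and Unc5b at 0.41 (0.04 to 0.78). In chamber-scored cells Robo2 lay at -1.60. The vascular subtype made up 15.5% of the class in the knockout library and 42.9% in the wildtype library. Markers of mesenchyme summed to 943 CPM in this class of the knockout and 1438 CPM in that of the wildtype library, with 0 of 12 absent in either, and their part was not tested.

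In mesenchymal cells 0 members were at least 2-fold higher and 5 were at least 2-fold lower in the knockout library, Slit2, Sema3d, Ntn1, Slit3 and Robo1, where 3.17% and 12.6% of 14783 genes were past those limits. Sema3d had a log2 ratio of -2.06 (-2.24 to -1.88) and Slit3 of -1.70 (-1.79 to -1.61). Ntn1 rests on 7 UMIs in the knockout and 56 in the wildtype library, at -1.86 (-3.24 to -0.73). Robo1 crossed the limit narrowly and stood at -0.98 relative to the median gene. Unc5c was at 0.15 (0.11 to 0.19), Unc5b at 0.40 (0.26 to 0.53) and Sema3a at 0.82 (0.67 to 0.96). Slit3 did not keep its ratio within the cushion: cushion-scored cells had 98.2 CPM in the knockout and 94.9 CPM in the wildtype library, 0.05 (-0.14 to 0.24). There 3 members with at least 20 UMIs stayed at least 2-fold lower, Slit2, Robo1 and Sema3d, and 0 were higher, against 9.9% and 3.27% of 12694 genes. With the gates at 2 times the share of marker UMIs Sema3d was at -0.12 over the whole class and Slit3 at -0.73, and Slit2 at -2.46, while Sema3a was at -0.015. With the subtype shares of the wildtype library given to both, Slit3 stood at -0.45 and Robo1 at -0.63, inside 2-fold, and Robo2 at 1.07 and Sema3a at 1.86, past it. Markers of epicardium summed to 266 CPM in mesenchymal cells of the knockout and 340 CPM in those of the wildtype library, with 1 of 10 absent in the knockout and 0 in the wildtype library, and their part was not tested.

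In epicardial cells 0 members were at least 2-fold higher and 4 were at least 2-fold lower in the knockout library, Ntn1, Slit2, Robo1 and Sema3c, where 5.24% and 12.3% of 15985 genes were past those limits. Ntn1 had a log2 ratio of -2.03 (-2.80 to -1.27) but rests on only 31 UMIs in each library. Sema3c had a log2 ratio of -1.16 (-1.27 to -1.05), Slit3 of -0.78 (-0.81 to -0.75), Sema3a of -0.93 and Sema3d of -0.46. The Unc5 receptors and Robo2 lay on the other side of 0, Unc5c at 0.99 (0.92 to 1.05), Unc5b at 0.87 and Robo2 at 0.55 (0.48 to 0.62). After thinning, an Unc5c UMI was found in 61.7% of epicardial cells of the knockout and 34.8% of those of the wildtype library, and before thinning in 91.6% (knockout) and 56.4% (wildtype). Markers of mesenchyme summed to 2245 CPM in epicardial cells of the knockout and 6769 CPM in those of the wildtype library, with 0 of 12 absent in either. Slit2 and Robo1 were high in wildtype mesenchyme too, and the part of these markers in their epicardial ratios was not tested.

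**Figure D5:**
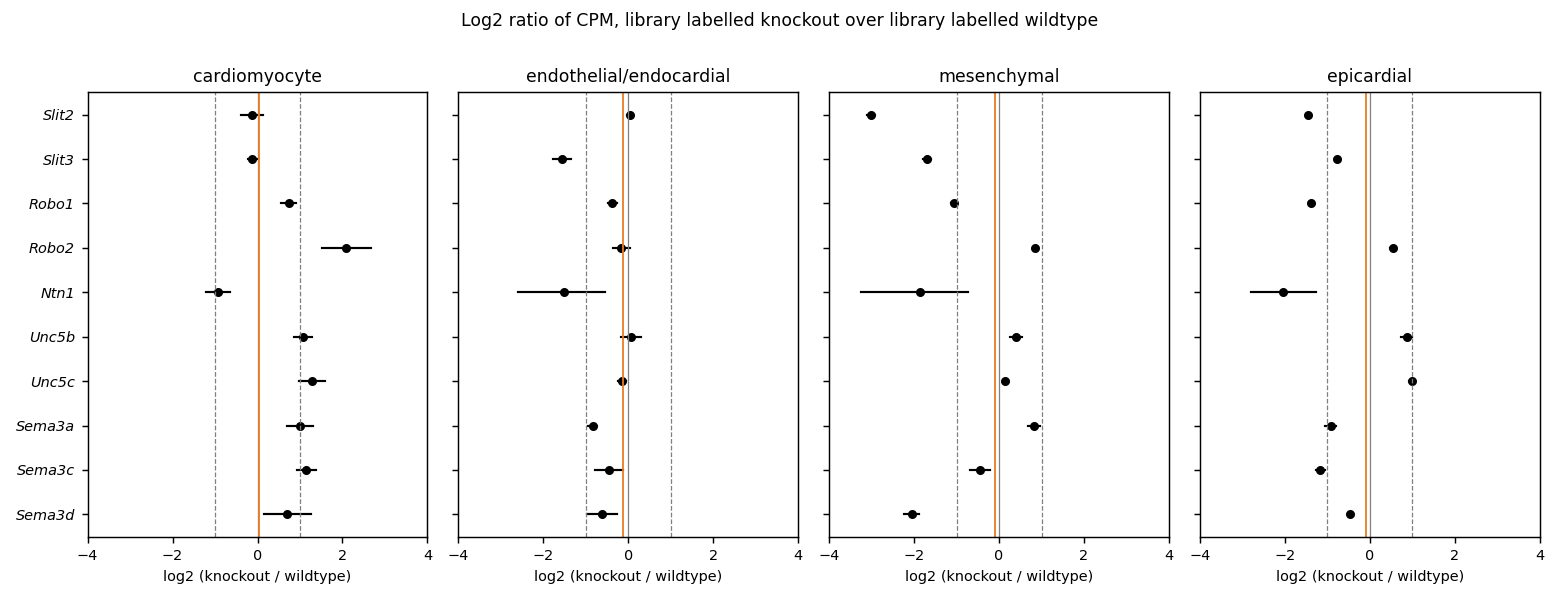
Log2 ratio of CPM, knockout over wildtype library, for the 10 guidance genes in 4 cell classes; points are ratios, lines exact 95% intervals for counting error, dashed lines 2-fold, and the orange line the median gene. Ratios lie mostly above 0 in cardiomyocytes, with a median of 0.87, and mostly below 0 in mesenchymal and epicardial cells, with medians of -0.76 and -0.85.

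In macrophages, 60 in the knockout and 204 in the wildtype library, 6 of the 7 members with at least 20 UMIs were at least 2-fold higher in the knockout library, Slit2, Slit3, Robo1, Robo2, Unc5c and Sema3a, and Sema3c was at least 2-fold lower, where 6.66% and 10.8% of 9788 genes were past those limits. Robo1 stood at 47.7 CPM (63 UMIs) in the knockout library and 15.3 CPM (30 UMIs) in the wildtype library. In the knockout library 8.33% of the 60 macrophages held all UMIs of Robo1 and as many all those of Robo2, 6.67% those of Unc5c and 5.00% those of Sema3a, so these levels rest on few barcodes. In the wildtype library the counts of Slit2, Slit3, Robo2, Unc5c and Sema3a, 3 to 18 UMIs each, were below what free RNA could bring, so their levels there were not detectable above it. The leading genes of the class differed too, with S100a8, S100a9 and Stfa1 among the top 10 in the knockout library and Mrc1, Lyz2 and F13a1 in the wildtype library.

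The receptors that the semaphorins use were measured in the same cells. Nrp1, the neuropilin that binds Sema3a, stood at 350 CPM in endothelial/endocardial cells of the knockout and 490 CPM in those of the wildtype library, at 398 CPM (knockout) and 316 CPM (wildtype) in epicardial cells, and at 190.0 CPM (knockout) and 199 CPM (wildtype) in cardiomyocytes. Nrp2 was lower in the knockout library in endothelial/endocardial cells, with 23.0 CPM (knockout) and 67.4 CPM (wildtype) (-1.55, interval -1.76 to -1.35), and in mesenchymal cells, with 10.7 CPM (knockout) and 46.8 CPM (wildtype) (-2.13). Plxna4, a plexin that pairs with neuropilins, had 738 CPM (knockout) and 821 CPM (wildtype) in epicardial cells and 123 CPM (knockout) and 58.4 CPM (wildtype) in mesenchymal cells (1.08, interval 0.95 to 1.21). Plxnd1, known for guiding vessels, had 176 CPM (knockout) and 221 CPM (wildtype) in endothelial/endocardial cells and at most 13.8 CPM in the other 3 main classes of either library. Plxna2 had 17.2 CPM (knockout) and 52.6 CPM (wildtype) in cardiomyocytes (-1.61) and 26.8 CPM (knockout) and 55.2 CPM (wildtype) in endothelial/endocardial cells (-1.04). Neo1, the neogenin receptor of netrins, was within 2-fold in all 4 classes. Robo4, the endothelial member of the Robo family, had 5.17 CPM in endothelial/endocardial cells of the knockout and 13.3 CPM in those of the wildtype library.

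Of 47 other genes of the Slit, netrin and semaphorin pathways, few were past 2-fold upwards. In cardiomyocytes 31 had at least 20 UMIs, and 1 was higher and 7 were lower, against 5.36% and 4.48% of all genes with as many UMIs. In endothelial/endocardial cells 1 of 37 was higher and 12 were lower (2.15% and 8.78% of all genes). In mesenchymal cells 1 of 36 was higher and 8 were lower (3.17% and 12.6%), and in epicardial cells 0 of 38 were higher and 8 were lower (5.24% and 12.3%). In macrophages 1 of 14 was higher and 7 were lower (6.66% and 10.8% of all genes). Among the lower were Srgap2 with 159 CPM (knockout) and 382 CPM (wildtype), Nrp1 with 111 CPM (knockout) and 362 CPM (wildtype), Plxna4 with 31.8 CPM (knockout) and 125 CPM (wildtype) and Plxnb2 with 53.0 CPM (knockout) and 139 CPM (wildtype). Sema6d, a transmembrane semaphorin, was the gene higher in cardiomyocytes, with 99.9 CPM (knockout) and 46.3 CPM (wildtype). Sema5a was lower in each of the 4 classes, with 10.48 CPM (knockout) and 66.0 CPM (wildtype) in cardiomyocytes (-2.65, interval -2.96 to -2.36), 5.08 CPM (knockout) and 17.9 CPM (wildtype) in endothelial/endocardial cells, 44.6 CPM (knockout) and 178 CPM (wildtype) in mesenchymal cells and 18.2 CPM (knockout) and 90.7 CPM (wildtype) in epicardial cells. Dcc, the attractive netrin receptor, had 15.7 CPM (knockout) and 91.4 CPM (wildtype) in mesenchymal cells, 33.4 CPM (knockout) and 125 CPM (wildtype) in epicardial cells and 14.3 CPM (knockout) and 33.5 CPM (wildtype) in cardiomyocytes. Flrt2, a membrane protein that binds Unc5 receptors, had 35.5 CPM (knockout) and 79.3 CPM (wildtype) in cardiomyocytes, 74.9 CPM (knockout) and 239 CPM (wildtype) in endothelial/endocardial cells and 149 CPM (knockout) and 379 CPM (wildtype) in mesenchymal cells. Sema6a had 77.3 CPM (knockout) and 175 CPM (wildtype) in endothelial/endocardial and 47.5 CPM (knockout) and 105 CPM (wildtype) in epicardial cells. Ntn4 had 13.1 CPM (knockout) and 33.8 CPM (wildtype) in endothelial/endocardial and 6.91 CPM (knockout) and 32.6 CPM (wildtype) in mesenchymal cells, Srgap3, which acts downstream of Robo, 8.81 CPM (knockout) and 34.7 CPM (wildtype) in mesenchymal cells, and Sema4c 5.08 CPM (knockout) and 10.7 CPM (wildtype) in epicardial cells. Most of the pathway genes past 2-fold were thus lower in the knockout library, in classes where lower ratios were also more common among all genes except in cardiomyocytes.

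The genes most like each member were sought over 21 classes and cardiomyocyte subtypes of both libraries, as the Pearson correlation of log2(CPM + 10) among 6702 genes; these units share libraries and some are parts of others. Robo2 was most like Sox9 (r = 0.96), Ephb2 and Snai2, and Unc5c most like Pdgfra (0.95), Rhou and Gli3. Slit2 was most like Col3a1 (0.96), Plat and Ptgis, and Sema3d most like Wt1os (0.97), Kcne1l and Rasl11a. Col3a1, Pdgfra and Sox9 were among the markers that set the mesenchymal class, and Wt1os runs antisense to the epicardial marker Wt1. Ntn1 was most like Igfbpl1 (0.95), Nppb and Gja5, of which the last encodes a gap junction protein of atrial and trabecular muscle. Slit3 was most like Daam2 (0.95), Robo1 like Gpc6 (0.93), Unc5b like Bambi (0.95), Sema3a like Epha7 (0.92) and Sema3c like Olfml2b (0.88). Among the members themselves the closest pair was Robo2 and Unc5c (0.90), and the farthest was Robo2 and Ntn1 (-0.36).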

How the data were processed

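Before the hearts were dissociated the embryos spent 3 hours on ice, per the labels' protocols. The deposited matrices hold raw UMI counts per gene for every barcode, cells or not. Cell Ranger 7.1.0 and the mm10 build are named in the submitters' processing notes. Whether intronic reads were counted is not given in those notes, nor are the authors' cell filters. The 10 genes, the gene lists and the markers were chosen with earlier results of these data known.

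Classes were set by the share of marker UMIs in a barcode, at least 1% for cardiomyocytes, 0.1% for endothelial/endocardial, mesenchymal, epicardial, macrophage and hepatic barcodes, 0.2% for megakaryocytes and 10% for erythroid cells; these limits were set after the shares were seen. The mesenchymal gate was read only where neither the epicardial nor the endothelial gate passed. Barcodes that passed 2 or more gates, 310 in the knockout and 672 in the wildtype library, were left out, which was the only treatment of doublets, and 215 in the knockout and 94 in the wildtype library passed no gate. A minimum of 500 genes removed 15 barcodes of the knockout library and 3642 of the wildtype library, and 88.7% of the UMIs in those of the wildtype library were hemoglobin. Cardiomyocyte, endothelial and mesenchymal subtypes were the highest of several scores, each the mean of standardised log marker levels. UMIs were summed per class and library, which gave 7375270 to 41539500 UMIs for the 4 main classes, and divided by the total (CPM). Intervals are exact Poisson for levels, exact conditional binomial for ratios and Clopper-Pearson for shares, all at 95% and for counting error only. Where 1 library had 0 UMIs, 3 counts were used as a floor. A gene counted as past 2-fold needed at least 20 UMIs over both libraries. Free RNA was bounded by giving it every hemoglobin UMI of a class, with the gene makeup of barcodes under 100 UMIs. Shares of cells with a UMI were taken after every barcode was thinned to 3000 UMIs, which left out none.

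Named were all 10 members, other pathway genes at least 2-fold apart in a compared class with at least 200 UMIs, 7 receptors, and the 3 genes with the highest correlation to each member. Genes were placed with GENCODE on mm10, and upstream sequences are RefSeq's on GRCm38.p6. The code for ratios and intervals was run on simulated cardiomyocyte counts that held counting error only, the error that the intervals assume. Such a run cannot show how they hold under spread between cells or libraries. Python 3.11.15, numpy 2.4.6, scipy 1.17.1, pandas 2.3.3, matplotlib 3.10.9 and, for TMM factors as an alternative, R 4.3.3 with edgeR 4.0.16 were used.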

Additional observations from a re-analysis of the deposited data

Results flagged for a closer look

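Sema3c stood on opposite sides in 2 classes. Its log2 ratio of knockout over wildtype was 1.15 in cardiomyocytes (626 UMIs in the knockout and 224 in the wildtype library) and -1.16 in epicardial cells (1913 UMIs in the knockout and 1045 in the wildtype library). In cardiomyocytes the ratio was 0.25 with the subtype shares of the wildtype library given to both. In atrial-scored cells alone it was -1.51 (-2.93 to -0.30), which rests on 7 UMIs (knockout) and 32 UMIs (wildtype). Free RNA itself held 123 CPM (knockout) and 86.3 CPM (wildtype) of Sema3c. Whether the atrial counts stood above it was not tested. With 1 library per group the difference between these ratios was not tested.

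A group of 57 barcodes of the knockout library passed the gate for hepatic markers, and 0 did in the wildtype library, so they entered no comparison. They had 590 CPM of Robo1 (908 UMIs), 79.2 CPM of Robo2 (122 UMIs) and 24.7 CPM of Unc5c (38 UMIs), above the limit that a count of 0 allows. Robo1 had a UMI in 93.0% of these barcodes and Robo2 in 3.51%, so the Robo2 UMIs came from few of them. The bounds on UMIs from free RNA were 2.78 for Robo1, 3.06 for Robo2 and 3.95 for Unc5c.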

How the results depend on the processing

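The counts of members past 2-fold, 4 in cardiomyocytes, 2 in endothelial/endocardial, 5 in mesenchymal and 4 in epicardial cells, stayed within 1.5 times under most alternatives. In cardiomyocytes the count was 8 with free RNA subtracted, where the floor of 3 counts set Robo2 and Sema3d. It was 1 with the subtype shares of the wildtype library given to both. In endothelial/endocardial cells it was 1 with barcodes of 2 or more gates kept. In mesenchymal cells it was 3 with gates of 2 times the share of marker UMIs and 3 in cushion-scored cells only. Among members past 2-fold, the direction turned for Unc5c (-0.36) and Sema3c (-1.51) in cardiomyocytes with atrial cells only, and for Slit3 (0.049) in mesenchymal cells with cushion-scored cells only. Members inside 2-fold turned too, among them in cardiomyocytes Slit2 (1.44, free RNA subtracted), Slit3 (2.73) and Sema3d (-0.74) with ventricular cells only and Sema3a (-0.17) with atrial cells only, and in mesenchymal cells Robo2 (-0.25) and Unc5c (-0.67) with cushion-scored cells only and Sema3a (-0.015) with gates of 2 times the share. Where not shown above, the cause was not tested. In all, 280 alternative values of members' ratios stayed within the main counting interval and 144 moved beyond it. The cushion-scored, chamber-scored and reweighted alternatives for endothelial/endocardial and mesenchymal cells were chosen after seeing the data. No paired analysis was possible because each group has 1 library. No library could be left out. Depth limits Ntn1 outside cardiomyocytes and the rarer cardiomyocyte subtypes of the wildtype library, with 27 to 31 cells each.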

Other observations

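In thinned epicardial cells, a Slit3 UMI was found in 78.0% of cells with a Sema3d UMI and 63.4% of cells without one in the knockout library, and in 88.4% and 73.1% of such cells in the wildtype library.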
